A study of Mus musculus with 4 samples.

Results

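Involucrin (Ivl) and the small proline-rich genes Sprr1a, Sprr1b, Sprr3 and Sprr4 encode precursors of the cornified envelope, the protein shell that replaces the membrane of dying skin cells. They were taken as every non-control probe that the array names for one of these genes, which gave 6 probes of 39429 and 5 genes of 30342 genes or targets. Ivl had 2 probes and the other genes had 1 each. The rule uses the probe names only.

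The study measured RNA from primary keratinocytes, the epithelial cells of the epidermis, on 1-colour expression arrays. Cells were taken from the whole skin of newborn C57BL/6 mice, either Pla2g2f+/+ or Pla2g2f-/-, with 0.05% collagenase A, and were kept in culture for 3 days. Pla2g2f encodes a secreted phospholipase A2. Each genotype was then held for 48 h without added CaCl2 or with 1 mM CaCl2, giving 4 groups: +/+ without calcium, +/+ with calcium, -/- without calcium and -/- with calcium. Each group was 1 array, and its RNA was pooled from 6 mice of that genotype. There was therefore no replicate and no test, no difference below has a replicate check, and genotype cannot be told apart from the preparation of cells or from the array. The number of arrays limits the precision.

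Involucrin is among the first proteins laid down beneath the plasma membrane when a keratinocyte leaves the spinous layer, and transglutaminases join it to envoplakin, periplakin and desmosomal proteins. Small proline-rich proteins are short cross-bridges that transglutaminases insert between the larger envelope proteins, and Sprr1 genes are known to respond to differentiation and to injury. Sprr3 is best known from the lining of the mouth and oesophagus. A raised calcium concentration is the usual switch from growth to differentiation in cultured mouse keratinocytes.

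The probes of all 5 genes lie on the minus strand of chromosome 3 (mm9, positions as the array's files give them) within 134.8 kb. The Sprr1b probe is at chr3:92240731-92240790, the Sprr3 probe at chr3:92260903-92260962, the Sprr1a probe at chr3:92287955-92288014 and the Sprr4 probe at chr3:92304195-92304254. The Ivl probes are at chr3:92375367-92375426 and chr3:92375498-92375557. No probe of another named gene lies inside this span. An mm9 annotation was not used here, so exon positions are not given. The sequences of both Ivl probes are shown because they read separate stretches of 1 transcript, and that of the Sprr4 probe because Sprr4 had the largest genotype difference among the members. They are written as on the array, with no part in capitals.

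Ivl probe read as the gene: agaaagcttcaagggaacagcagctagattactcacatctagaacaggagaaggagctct

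Ivl second probe: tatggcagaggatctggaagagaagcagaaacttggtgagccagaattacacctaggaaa

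Sprr4 probe: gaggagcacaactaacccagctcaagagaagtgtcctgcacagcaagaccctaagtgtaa

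Levels are given as a percentage of the array's 75th percentile of signal, the common scale of the 4 arrays. Probes bind with different strength, so a level is compared between arrays and not between genes. For involucrin, the probe read as the gene (the brighter one) stood at 8.47% in +/+ cells without calcium, 10.6% in +/+ cells with calcium, 4.39% in -/- cells without calcium and 7.70% in -/- cells with calcium. The second Ivl probe stood at 6.34%, 7.88%, 3.06% and 5.51% in the same order. The -/- array without calcium was the lowest and the +/+ array with calcium the highest on each Ivl probe.

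Sprr1a stood at 239% in +/+ cells without calcium and 3958% with calcium, and at 524% and 3821% in -/- cells. The arrays with calcium lay close together, while the -/- array without calcium was above its +/+ counterpart. Sprr1b stood at 361% and 1999% in +/+ cells and at 325% and 1374% in -/- cells, so that the genotypes were close without calcium and the -/- array was lower with it. No pixel was saturated in any spot of these genes, including the Sprr1a spots with calcium, whose processed signals were 108348 and 126062 intensity units.

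Sprr4, a small proline-rich gene that sits alone between the Sprr1a and Ivl probes, had another order. It stood at 3.45% in +/+ cells without calcium, 5.93% in +/+ cells with calcium, 11.3% in -/- cells without calcium and 22.1% in -/- cells with calcium. Each -/- array was above each +/+ array. Sprr3 was not well above background on any array, with signals of 41.5, 25.3, 12.0 and 20.7 intensity units in the order above and scanner errors of 26.0% to 65.1% of the signal. No fold is given for Sprr3, while each array measured the other 4 genes well above background. Krt4, a keratin of internal stratified epithelium, was likewise not well above background on any array. Of 8 genes listed for that epithelium, 5 to 7 were well above background on each array. Those measured on every array were the keratins Krt7, Krt8, Krt13, Krt18 and Krt19. Crnn was well above background on 2 arrays and Muc4 on 1. How specific the listed genes are to that epithelium was not tested.

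**Figure D1:**
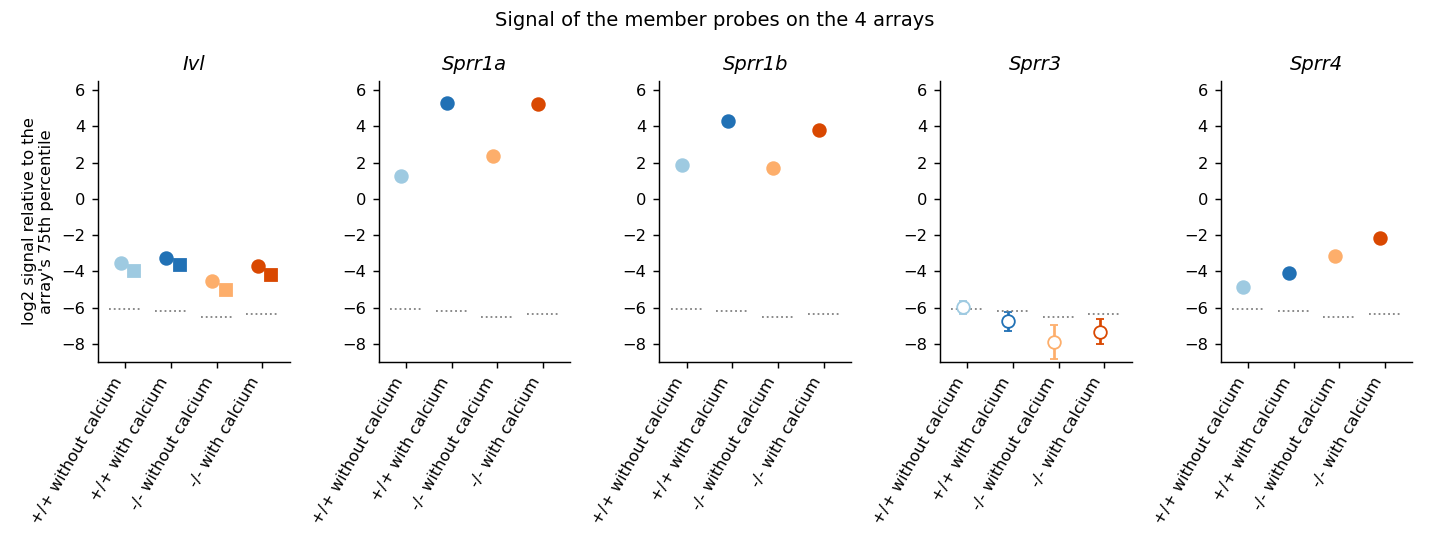
Signal of each Ivl and Sprr probe on the 4 arrays, as log2 level relative to the array's 75th percentile, with 1 scanner error as the bar, filled symbols for spots well above background, hollow symbols for spots that were not, a square for the second Ivl probe and a dotted line for the lowest signal well above background on each array. Sprr1a runs from 1.25 to 5.31 log2 in +/+ cells, Sprr4 is higher on each -/- array than on each +/+ array, and Sprr3 has hollow symbols only.

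In +/+ cells the calcium response separated the Sprr1 genes from the rest. Sprr1a was 16.6-fold higher with calcium (log2 difference 4.05, scanner error 0.20) and Sprr1b 5.54-fold higher (2.47, scanner error 0.20). Ivl was 1.25-fold higher (0.32, scanner error 0.22) and Sprr4 1.72-fold higher (0.78, scanner error 0.29). The scanner error is what the scanner software estimates for the spots of the arrays compared, and a 95% scanner interval is 1.96 times as wide on each side. It leaves out the spread between cultures, which these arrays do not measure. The interval of Ivl, -0.11 to 0.76, included 0, and that of Sprr4, 0.22 to 1.34, did not. Both readings depend on the processing: Ivl was 0.71 under scaling to basal keratinocyte genes, more than 1.96 scanner errors, and Sprr4 was 0.41 under normexp background correction, less than that, and 1.17, or 2.25-fold, under the basal-gene scaling. The second Ivl probe gave 0.31.

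Among the 4 genes compared, 2 were at least 2-fold higher with calcium in +/+ cells and 0 lower, where the shares over all 21130 genes compared were 2.47% higher and 1.01% lower by that much. The median of the 4 genes was 1.63, beside -0.07 over all genes. Among all genes, 0.147% had a larger calcium response than Sprr1a and 0.516% a larger one than Sprr1b. For Sprr4 that share was 3.41% and for Ivl 9.87%, so Ivl stood nearer the middle of the distribution than the Sprr genes.

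In -/- cells the order of the responses was the same, with a narrower range. Sprr1a was 7.29-fold higher with calcium (2.87, scanner error 0.20), Sprr1b 4.22-fold (2.08, scanner error 0.20), Sprr4 1.95-fold (0.96, scanner error 0.21) and Ivl 1.76-fold (0.81, scanner error 0.24). None of the 4 scanner intervals included 0, and the interval of Ivl was 0.35 to 1.27. The Ivl and Sprr4 intervals overlapped, so their order is within the scanner error. The second Ivl probe gave 0.85. Again 2 of 4 genes, Sprr1a and Sprr1b, were at least 2-fold higher and 0 lower, beside 2.99% higher and 0.602% lower among 21428 genes. The median was 1.52, beside -0.03 over all genes. Ivl and Sprr4 lay just under 2-fold here and passed it, at 1.27 and 1.42, under the basal-gene scaling, which sets to 0 a list whose median was -0.47 with calcium in these cells.

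The genotype differences went different ways in neighbouring genes. Without calcium, Sprr4 was 3.29-fold higher in -/- than in +/+ cells (1.72, scanner error 0.27) and Sprr1a 2.20-fold higher (1.14, scanner error 0.20). Ivl was 1.93-fold lower (-0.95, scanner error 0.24), and its second probe 2.07-fold lower (-1.05), so the probes fall on either side of 2-fold. Sprr1b differed by -0.15, within its scanner interval of -0.55 to 0.25, and by 0.04 under the basal-gene scaling. In all, 2 of 4 genes were at least 2-fold higher and 0 lower, beside 4.65% higher and 4.32% lower among 21346 genes. The median of the 4 genes was 0.49, beside -0.18 over all genes. Among all genes 1.83% had a larger value than Sprr4, and 5.14% a lower one than Ivl. With normexp background correction the Sprr4 difference was 1.06, or 2.09-fold.

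With calcium, Sprr4 was 3.72-fold higher in -/- cells (1.90, scanner error 0.22), and it was the only 1 of the 4 genes at least 2-fold higher, with 0 lower. Over all 21565 genes the shares were 6.56% higher and 3.05% lower. Sprr1b was 1.45-fold lower (-0.54, scanner interval -0.94 to -0.14) and Ivl 1.38-fold lower (-0.46, scanner interval -0.89 to -0.03). Under the basal-gene scaling these values were -0.28 and -0.20, for Sprr1b under quantile scaling -0.31 and for Ivl under normexp -0.35, each less than 1.96 scanner errors from 0. Sprr1a differed by -0.05, within its scanner interval of -0.45 to 0.35, and by 0.22 and 0.21 under quantile scaling and the basal-gene scaling. The median of the 4 genes was -0.26, beside -0.16 over all genes. Thus Sprr4 was higher in -/- cells in both media, Ivl was lower in both with the value with calcium near the limit of the scanner error, and the higher level of Sprr1a in -/- cells was measured in medium without added calcium.

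**Figure D2:**
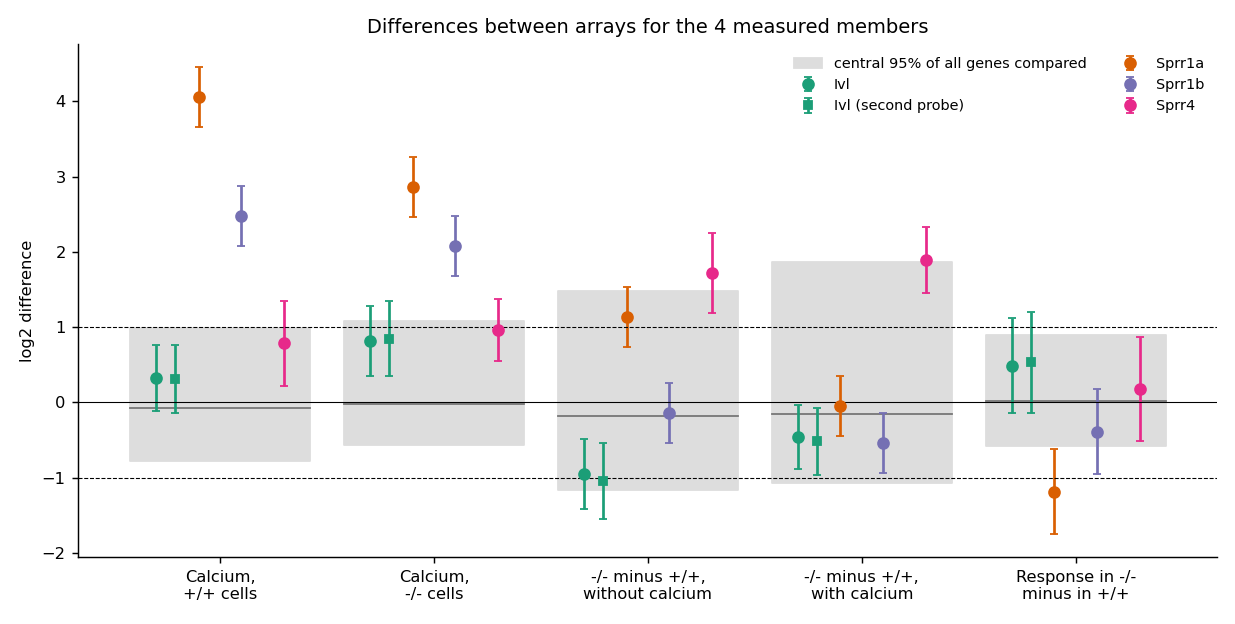
Log2 differences of Ivl, Sprr1a, Sprr1b and Sprr4 in the calcium responses, the genotype differences and the difference of the calcium responses, with bars of 1.96 scanner errors, dashed lines at 2-fold, and the central 95% and median of all genes in grey. The Sprr1a response is 4.05 in +/+ and 2.87 in -/- cells, while Sprr4 lies at 1.72 and 1.90 in the genotype differences.

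The difference of the calcium responses is the response of -/- cells minus that of +/+ cells. It shares all 4 arrays with the comparisons above and adds no further measurement. For Sprr1a it was -1.19 (scanner error 0.29, scanner interval -1.75 to -0.62), a 2.28-fold smaller response in -/- cells. Its parts were a higher -/- level without calcium and a nearly equal level with calcium. Among the 19227 genes that every array measured above background, 0.369% had a lower value than Sprr1a. Under quantile scaling the value was -0.99, which is just under 2-fold.

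For Sprr1b the difference of the responses was -0.39 (scanner interval -0.96 to 0.17), for Sprr4 0.18 (-0.51 to 0.87) and for Ivl 0.49 (-0.15 to 1.12). All 3 intervals included 0, and the value of Sprr4 was -0.02 under quantile scaling. So 1 of 4 genes was at least 2-fold lower and 0 higher, beside 0.629% lower and 1.91% higher among all genes. The median was -0.11, beside 0.02 over all genes.

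Upstream sequence was read from RefSeq (GRCm38.p6), whose table held a window for each of the 5 genes. The Sprr4 window starts from a record that begins with ATG, so it may not be a transcription start and was not used. The 150 bases before the start are shown for the 3 members with an AP-1 match, since AP-1, the dimer of Fos and Jun proteins, is the factor best known at Ivl and Sprr promoters. Capitals mark the letters TGANTCA, the AP-1 element with any middle base allowed, and TATAAA, the TATA box. An AP-1 match here means the letters TGANTCA. The windows are chr3:92485882-92486031 for Sprr1a, chr3:92438780-92438929 for Sprr1b and chr3:92573736-92573885 for Ivl, each on the minus strand. The starts used are 92438779 for Sprr1b and 92573735 for Ivl, but their RefSeq gene records reach to 92438817 and 92573790. Part of the Sprr1b window and of the Ivl window, with the TATA box letters, therefore lies inside the gene record.

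Sprr1a: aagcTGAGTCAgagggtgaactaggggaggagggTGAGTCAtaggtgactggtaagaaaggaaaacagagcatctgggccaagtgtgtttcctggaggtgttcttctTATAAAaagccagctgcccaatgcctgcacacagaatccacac

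Sprr1b: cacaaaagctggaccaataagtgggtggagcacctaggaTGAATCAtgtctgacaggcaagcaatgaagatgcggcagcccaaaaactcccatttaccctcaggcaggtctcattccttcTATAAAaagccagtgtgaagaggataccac

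Ivl: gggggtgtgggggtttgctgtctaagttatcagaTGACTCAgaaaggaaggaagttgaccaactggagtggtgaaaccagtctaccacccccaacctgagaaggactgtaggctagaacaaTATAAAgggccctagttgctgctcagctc

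In the 250 bases before the start, the AP-1 letters occurred 2 times for Sprr1a (-146 to -140 and -116 to -110), 1 time for Sprr1b (-111 to -105) and 1 time for Ivl (-116 to -110). They did not occur in the Sprr3 window. The letters read TGAGTCA in both Sprr1a matches, TGAATCA in Sprr1b and TGACTCA in Ivl. The usual AP-1 element has C or G in the middle, so the Sprr1b match departs from it. TGANTCA is its own reverse complement, and 6.75% of 32851 promoter windows held it at least 1 time and 0.338% at least 2 times. A match is a description of these letters and not a bound site.

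TATAAA lay on the forward strand at -43 to -38 for Sprr1a, -30 to -25 for Sprr1b, -29 to -24 for Ivl and -33 to -28 for Sprr3. Of all windows 12.4% held it on either strand, and 2.31% held it on the forward strand within 40 bases of the start. The Sprr1a match begins outside those 40 bases and would not be counted in the 2.31%. Searched on both strands, the CRE-like letters TGACATCA occurred in Sprr1a alone of the 4 windows (-207 to -200, 2.93% of all windows), and the Ets letters GGAAGT in Ivl and Sprr3 (19.7%). CACCC occurred in all 4 windows (52.0% of all windows), 4 times for Sprr1a, where the match at -119 to -115 overlaps an AP-1 match. GGGCGG (32.7%) and ATGCAAAT (1.6%) occurred in none of the 4. Aligned from the start without gaps, the windows were 22.8% to 28.0% identical between pairs. This count cannot show whether the windows are related, because shared letters such as TATAAA lie at different distances from the start.

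**Figure D3:**
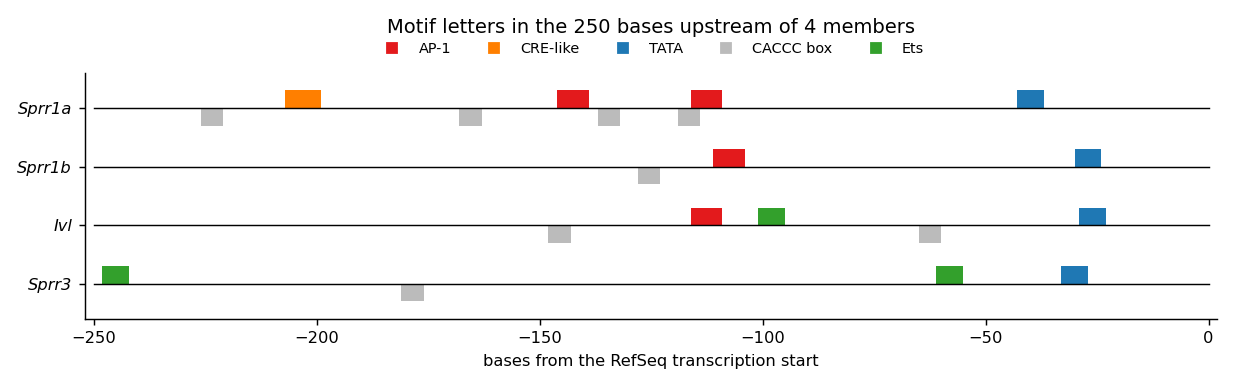
Matches to the searched letters in the 250 bases before the start of Ivl, Sprr1a, Sprr1b and Sprr3, by distance from the start in bases, with CACCC matches drawn below each line. Sprr1a has 2 AP-1 matches (TGANTCA, any middle base), Sprr1b and Ivl 1 each, and a TATAAA match lies near the start of each gene.

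None of the 7 Fos and Jun genes measured was 2-fold different with calcium in either genotype. The responses in +/+ cells were 0.66 for Fos, 0.63 for Fosl1, 0.58 for Fosl2, 0.82 for Junb, 0.56 for Jund, -0.15 for Jun and -0.14 for Fosb. In -/- cells they were 0.24 for Fos and for Fosl1, 0.21 for Fosl2, 0.31 for Junb, 0.12 for Jund, -0.49 for Jun and 0.57 for Fosb. Fosl1 differed between genotypes by -1.08 without and -1.47 with calcium, Fos by -0.69 and -1.11, and Fosl2 by -0.64 and -1.02. The differences were -0.44 and -0.95 for Junb, -0.08 and -0.52 for Jund, -0.02 and -0.36 for Jun and -0.47 and 0.23 for Fosb. Transcript levels do not show the activity of these factors. Of 29 AP-1 and other factors reported at Ivl or Sprr promoters, 7 were at least 2-fold higher with calcium in +/+ cells and 5 in -/- cells, with 0 lower in each (medians 0.40 and 0.24). The Ets factor Ehf was higher by 4.54 and 3.44, the grainyhead factors Grhl3 by 2.94 and 1.96 and Grhl1 by 2.38 and 2.65, and Zfp750, a zinc finger factor of terminal differentiation, by 2.42 and 2.57. Between genotypes, 2 of the 29 were at least 2-fold higher in -/- cells and 1 lower without calcium, and 3 were higher and 8 lower with calcium. The shares over all genes were 4.65% higher and 4.32% lower without calcium, and 6.56% higher and 3.05% lower with calcium.

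The members sit among other envelope genes, with Sprr2 genes on 1 side and late cornified envelope (Lce) genes on the other. In +/+ cells 7 of 9 Sprr2 genes compared were at least 2-fold higher with calcium (median 2.04), and 19 of 19 Lce genes (median 4.29). In -/- cells the counts were 5 of 9 (median 1.11) and 15 of 19 (median 1.35). With calcium, 8 of 9 Sprr2 genes and 15 of 19 Lce genes were at least 2-fold lower in -/- than in +/+ cells, with medians of -3.02 and -1.42. None of the 4 members was at least 2-fold lower there, and Sprr4 was higher. Sprr2 and Lce are each a family of related genes, so probes within each family may share signal and cannot be taken as separate measurements. The likeness of the probe sequences was not tested.

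**Figure D4:**
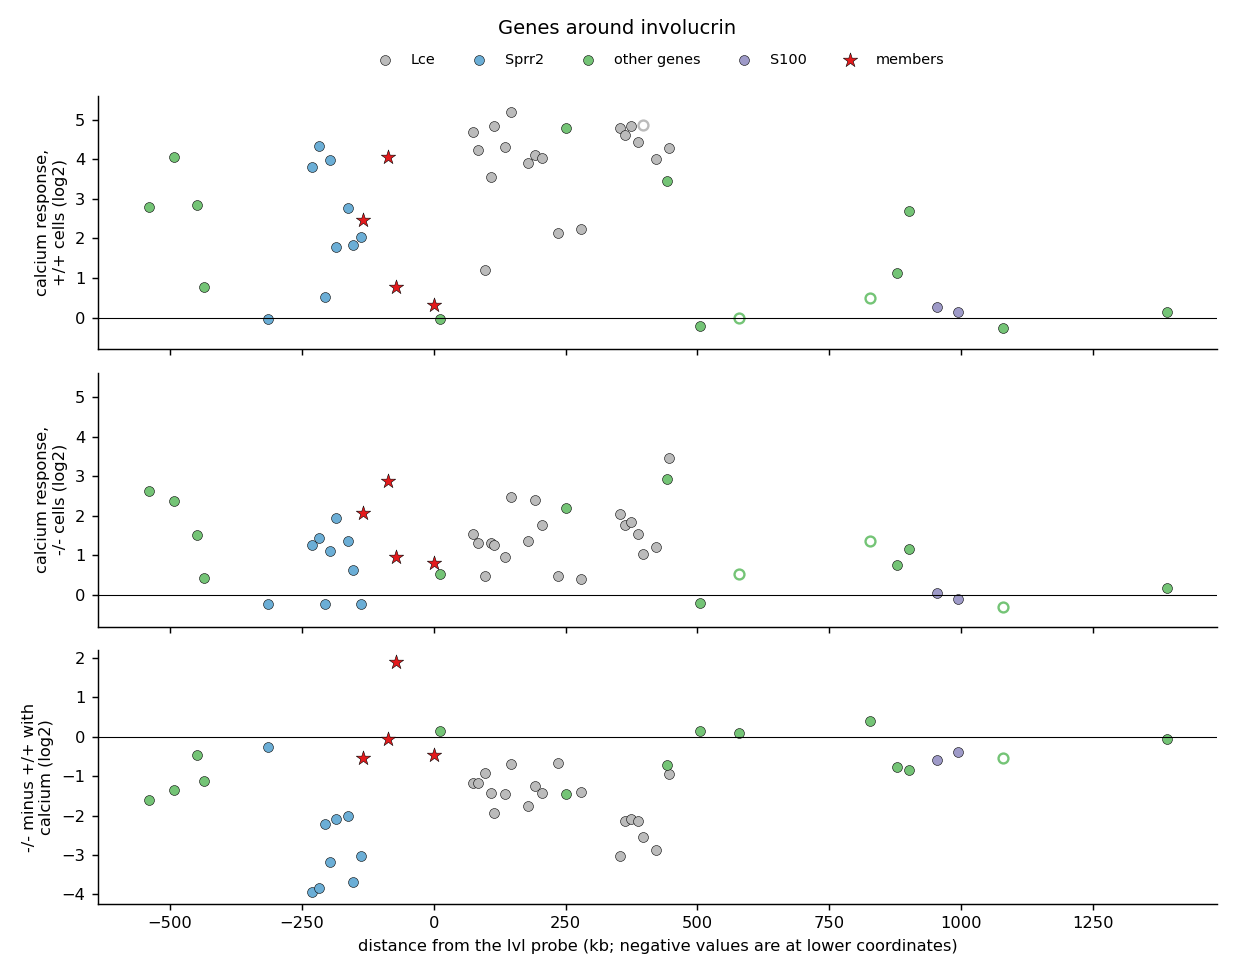
Log2 differences of named genes within 1500 kb of the Ivl probe, by distance in kb, for the calcium response of +/+ cells, that of -/- cells, and -/- minus +/+ cells with calcium; hollow points are lower bounds. In the lowest panel Sprr4 lies at 1.90, Sprr1a at -0.05, Ivl at -0.46 and Sprr1b at -0.54, while the Sprr2 genes have a median of -3.02.

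The enzymes that cross-link these proteins did not move as one. Tgm1, the membrane-bound transglutaminase of keratinocytes, was higher with calcium by 4.36 in +/+ and 3.28 in -/- cells. Tgm2 differed by -0.13 and -0.16, and Tgm3 by -0.16 and 0.01. Tgm5 was well above background with calcium only, at least 2.22-fold higher in +/+ and at least 7.27-fold higher in -/- cells. These bounds are taken against the higher of the gene's own dim signal and the lowest signal well above background on that array. So 2 of 4 enzymes were at least 2-fold higher in each genotype. With calcium, Tgm1 was lower in -/- cells by -1.12 and Tgm2 higher by 1.05.

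Other genes listed as early scaffold went both ways between genotypes. The plakins envoplakin (Evpl) and periplakin (Ppl) were higher with calcium by 1.25 and 1.47 in +/+ cells and by 1.68 and 1.67 in -/- cells. Without calcium they were lower in -/- cells by -0.90 and -0.97, beside -0.95 for Ivl. Plakoglobin (Jup) was higher with calcium by 0.86 and 0.89, and corneodesmosin (Cdsn) by 3.33 and 3.66. Of 16 scaffold genes compared, 6 were at least 2-fold higher with calcium in +/+ cells and 8 in -/- cells, with 0 lower (medians 0.61 and 1.00). With calcium, 4 were at least 2-fold higher and 0 lower in -/- than in +/+ cells, in the opposite direction to Ivl. These were Cdsn (1.04), sciellin (Scel, 1.74) and the desmosomal cadherins Dsg1a (3.33) and Dsc1 (1.47). Most of the list went the same way as Ivl, with 5 of 16 genes above 0 and a median of -0.36. This direction was not particular to the scaffold list. The median was -0.16 over all genes and -0.41 over 6 keratinocyte-defining genes, of which 0 were above 0. Evpl (-0.47) and Ppl (-0.77) were among the genes lower in -/- cells with calcium.

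Genes listed as late envelope precursors behaved otherwise. The list includes Sprr2j-ps, a pseudogene by its name, and whether each listed gene is added late was not tested. Of 32 compared, 29 were at least 2-fold higher with calcium in +/+ cells (median 4.05) and 25 in -/- cells (median 1.36), and most of them are Lce or Sprr2 genes. Cornifelin (Cnfn) was higher by 6.04 and 4.95, and Kprp by 4.79 and 2.19. With calcium 26 of the 32 were at least 2-fold lower in -/- cells and 0 higher. In the difference of the responses 24 of 30 were at least 2-fold lower, with a median of -2.41 beside -1.19 for Sprr1a and -0.39 for Sprr1b.

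**Figure D5:**
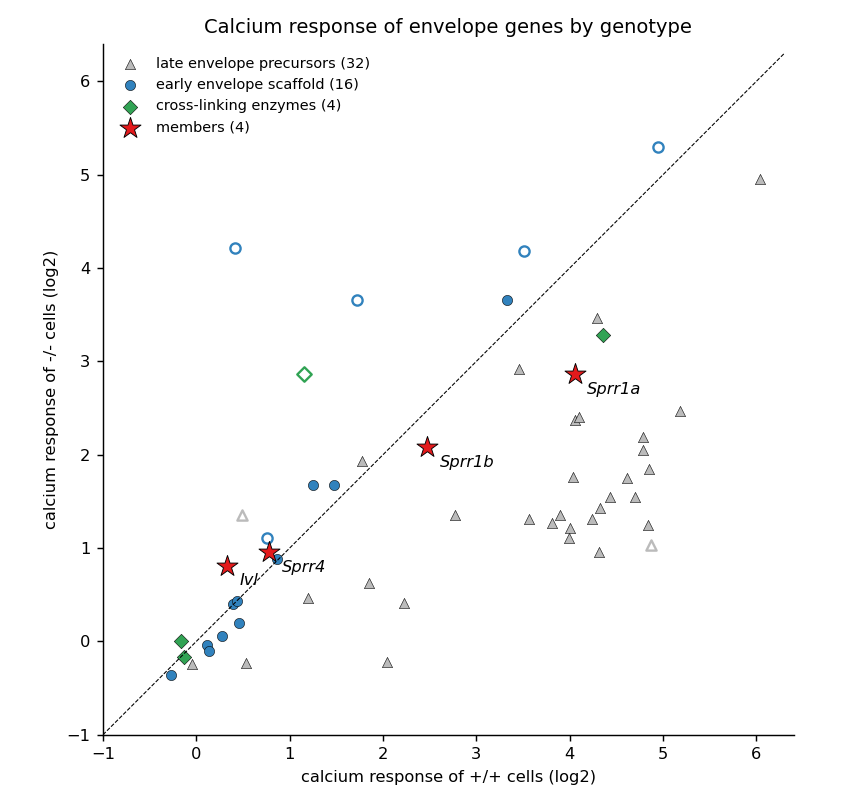
Calcium response of -/- cells against that of +/+ cells (log2) for Ivl, Sprr1a, Sprr1b and Sprr4 with the cross-linking enzymes, early scaffold and late precursor genes, hollow where a response is a lower bound, and a dashed line of equal response. Sprr1a (4.05 and 2.87) lies below the line and Ivl (0.32 and 0.81) above it, and most late precursors lie well below it.

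Spinous-layer genes, some of which are also scaffold genes, were at least 2-fold higher with calcium in 8 of 16 cases in +/+ cells and 10 of 16 in -/- cells (medians 0.94 and 1.41). Krtdap was higher by 4.51 and 2.87 and Hopx, a homeodomain protein, by 3.61 and 3.89. Of genes of the activated or wounded keratinocyte, 5 of 19 were at least 2-fold higher with calcium in +/+ and 6 of 18 in -/- cells, among them Krt16, a keratin of wounded skin, at 2.92 and 3.13, and the defensin Defb14 at 5.53 and 5.10. Without calcium 0 of 18 such genes were at least 2-fold higher in -/- cells and 5 lower, and with calcium 1 of 19 was higher and 4 lower. Of 20 basal keratinocyte genes 1 was at least 2-fold lower with calcium in +/+ and 2 in -/- cells (medians -0.37 and -0.47), and the integrin Itga3 was lower by -1.27 and -1.12.

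Over the 4 arrays, the pattern of each member was compared with that of 14366 named genes by the root mean square distance between log2 levels centred on each gene's mean. Ivl was closest to Cyp2c37 (0.0281), Crybg2 (0.0560) and Tmem139 (0.0702). Sprr1a was closest to Asprv1 (0.0997), a protease that processes filaggrin, to Krtdap (0.169) and to Cidea (0.258). Sprr1b was closest to Ovol1 (0.134), a zinc finger factor of epidermal differentiation, to Cyp2c38 (0.153) and to Hpgd (0.170). Sprr4 was closest to Acox2 (0.0852) and to the skeletal muscle troponins Tnnc2 (0.120) and Tnnt3 (0.154). With 4 points such distances are descriptions only.

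Between members the distance was 0.766 between Sprr1a and Sprr1b, 0.899 between Ivl and Sprr1b, 1.27 between Ivl and Sprr4, 1.29 between Sprr1b and Sprr4, 1.48 between Sprr1a and Sprr4 and 1.63 between Ivl and Sprr1a. The closest pair was thus the 2 Sprr1 genes, and Ivl and Sprr1a were the farthest apart. Counted among the 14366 genes, Sprr1b had rank 76 by nearness to Sprr1a, and Sprr1a had rank 309 by nearness to Sprr1b.

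Markers of other cell types moved with genotype, as did Sprr4. Without and with calcium, 8 of 8 mast cell genes compared were at least 2-fold higher in -/- cells (medians 3.16 and 3.74), and so were 8 of 8 adipocyte genes (2.88 and 3.08). Of the myeloid genes 7 of 13 and 8 of 12 were higher by that much (1.55 and 2.49), of the fibroblast genes 2 of 17 and 10 of 18 (0.60 and 1.07), of the skeletal muscle genes 3 of 4 and 2 of 4 (1.58 and 0.63), and of the pericyte genes 2 of 5 and 3 of 5 (0.47 and 1.00). The other 6 lists (endothelial, T cell, melanocyte, sebaceous gland, hair follicle and internal epithelium) had 0 to 2 genes higher and 0 to 3 lower by that much in either medium. As a percentage of the 75th percentile, the summed mast cell level was 153% to 169% on the +/+ arrays and 1149% to 1155% on the -/- arrays, and the summed adipocyte level 2658% to 3963% and 10858% to 13183%. The summed myeloid level was 868% to 1066% and 2969% to 3711%, and the summed fibroblast level 24116% to 26289% and 35615% to 40415%. The fibroblast sum of 35615%, on the -/- array without calcium, covers 17 of 18 genes, because the other had no value there. For skeletal muscle genes the summed level was 29.8% to 48.3% and 84.4% to 96.7%, and for pericyte genes 681% to 1071% and 2022% to 2311%. Cd207, which defines Langerhans cells, and the muscle genes Myh1 and Ckm were not well above background on any array. The muscle gene Myh4 was well above background on the -/- array without calcium only, and was counted as higher there from a bound of 1.83. The other muscle genes counted as higher were Acta1 and Tnnt3. Mylpf went the other way, at -0.97 without and -0.69 with calcium.

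The 6 keratinocyte-defining genes, Krt5, Krt14, Trp63, Cdh1, Dsp and Perp, were well above background on every array. Their summed level was 38114% and 40838% of the 75th percentile in +/+ cells and 31561% and 29830% in -/- cells, and their median genotype differences were -0.23 and -0.41. The part of these markers in the values of Ivl, Sprr1a, Sprr1b and Sprr4 was not tested. In RNA from a whole culture, fewer cells of a type and less RNA per cell cannot be told apart. Pla2g2f itself had log2 levels of -3.35 and -3.04 in +/+ and -3.78 and -3.53 in -/- cells. The labels do not say which exons were removed, so this probe does not check the genotype.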

How the data were processed

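Expression was measured on 4 Agilent 1-colour arrays of 1 slide, from 200 ng of RNA each, with 1 array per group. Per the file headers, the deposited signal is an intensity that the scanner software (Agilent Feature Extraction 11.5.1.1) had corrected for background within an array but had not scaled between arrays. The deposited value table holds a ratio, equal within 4.6e-07 in relative terms to the signal divided by 1 constant per array, which is 1.0001 to 1.0006 times the 75th percentile; its column medians are 0.0660, 0.0623, 0.0612 and 0.0645. How the authors made it is not given in the sources used here.

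Outlier spots (105 to 116 per array) were dropped, and log2 signals were set relative to the 75th percentile of the 43020 non-control spots of their array (2638 to 3299 intensity units). From 67.0% to 68.6% of probes were well above background, 0 were saturated, and repeat spots had SDs of 0.0685 to 0.0739. A gene was read from its brightest probe; 27508 probes were named through their accession and 11921 from the file. A comparison needed 1 array with the gene well above background, a dim side gave a bound, and genes were counted at 2-fold.

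The members and the 8 gene and 13 marker lists were chosen with earlier results of these data known. From each list up to 4 genes measured on all arrays were eligible for naming, by the mean size of their calcium responses. So were the 3 nearest genes of each member. Named outside this rule were the Fos and Jun family, Tgm5, Krt14, Perp, Scel, Dsg1a, Dsc1, Sprr2j-ps and the named markers of other cell types. Some of these were named after their values were seen. The code was tested on simulated data. Python 3.11.15, numpy 2.4.6, pandas 2.3.3 and, for normexp, R 4.3.3 with limma 3.58.1 were used. The 9 alternatives were normexp, quantile scaling, scaling to the median of measured probes or to basal genes, the mean of probes, the value table, 2 other filters on dim genes and a 3-fold threshold.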

Additional observations from a re-analysis of the deposited data

Results flagged for a closer look

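The genotype difference of Sprr1a had opposite signs in the 2 media. It was 1.14 log2 without calcium and -0.051 with calcium, with -/- cells higher in the first and lower in the second. The second value is smaller than its scanner error of 0.20, and it was positive, at 0.22 and 0.21, under quantile scaling and scaling to basal genes. With 1 array per group the difference between the media was not tested against any spread between cultures.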

How the results depend on the processing

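Of the values for single genes, 141 moved by less than the scanner error under the alternatives and 19 by more. Many of the 141 could not move. The other filters on dim genes left every such value as it was, and so did the mean of probes for genes other than Ivl. The value table holds nearly the same scaling as the main values. Of the counts and medians of the members, 74 were within the tolerance (1.5 times for a count, the scanner error for a median) and 11 were not. Part of the 74 were fixed in the same way. Within it, the count went from 2 to 3 in the +/+ calcium response under basal scaling and in the genotype difference without calcium with no filter. Without a filter on dim genes, which adds Sprr3, the median was 0.78 in the +/+ calcium response, 0.96 in the -/- response and -0.15 in the genotype difference without calcium, and 2 members were at least 2-fold different in the difference of the responses. With scaling to 20 basal keratinocyte genes the medians were 2.01 and 1.98 in the calcium responses and 0.0019 in the genotype difference with calcium, and 4 members were at least 2-fold higher with calcium in -/- cells. At 3-fold, 1 member differed between genotypes without calcium and 0 in the difference of the responses, and 0 did so in the latter under quantile scaling. The cause was not tested, other than the added gene and the stricter threshold. Sprr1a ranged from 3.98 to 4.44 in the +/+ response, 2.85 to 3.32 in the -/- response and -1.22 to -0.99 in their difference. Sprr4 ranged from 1.06 to 1.91 and 1.44 to 2.16 between genotypes, with both lowest values from normexp. The share of calls that were higher, 51.8% between genotypes without calcium, was 77.7% under normexp, 74.4% under quantile scaling, 72.7% under basal scaling, 49.6% with the mean of probes and 30.9% with no filter. Other scalings also moved it, from 70.9% to 92.9% (basal) in the +/+ response, from 83.2% to 73.1% (quantile) and 98.3% (basal) in the -/- response, from 68.2% to 85.3% (basal) between genotypes with calcium and from 75.2% to 50.4% (quantile) in the difference of the responses. In the order of the comparisons above, basal scaling set the all-gene median at 0.31, 0.43, 0.01, 0.10 and 0.09. No paired analysis was possible because each comparison within a genotype or a medium has 1 array on each side. Sprr3 was too dim on all arrays for a direction, and the lowest signal well above background was exceeded 4.07 to 7.85 times by Ivl and 2.31 to 18.1 times by Sprr4, with 2.31 and 4.39 on the +/+ arrays, against at least 160 times by the Sprr1 genes.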
